A study of Mus musculus with 3 samples.

Results

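Hoxc10-only intergenic sites are the Hoxc10 summits of a chromatin immunoprecipitation (ChIP-seq) of mouse hindlimb buds that lay outside every protein-coding gene and had no Tbx4 summit within 200 bp. They numbered 664 of the 1614 sites in the Hoxc10 list, or 41.1% (95% Wilson interval 38.8 to 43.6%), and 60.6% of the 1096 Hoxc10 sites without Tbx4. The series profiled hindlimb buds of wild-type CD1 embryos at embryonic stage e11.5, with 3 samples of 1 ChIP each. The Hoxc10 sites came from an Abcam antibody, and the Tbx4 sites that defined "only" came from a homemade antibody. A further Hoxc10 ChIP with a Santa Cruz antibody was not analysed here. An unexplained abbreviation in the name of the Hoxc10 list leaves it possible that only Abcam sites within 200 bp of Santa Cruz sites were kept, in which case the 1614 sites are those seen with both antibodies. No library was replicated, a bud holds several cell types, and the labels do not say whether embryos were pooled. The files hold summit positions and scores but no expression values, so the tissue could not be checked against marker genes. The sites were chosen by the measured positions of the Hoxc10 and Tbx4 summits, so their values are a description, and no difference between kinds of sites was tested. Positions are given on the build mm10.

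Hoxc10 is one of the posterior Hox genes, which encode homeodomain transcription factors that position structures along the body and the limb. It is expressed in the hindlimb and not in the forelimb bud. Many limb genes are controlled by enhancers far from their promoters, often in gene deserts, and Hox proteins bind DNA there together with cofactors of the Pbx and Meis families. Tbx4 is a T-box transcription factor of the hindlimb.

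The label "Hoxc10-only" holds for the deposited lists. The nearest Tbx4 summit was a median of 88792 bp away (quartiles 17013 and 310264 bp), and 40 sites had none within 1 Mb. Some sites stood close to the limit. There were 22 sites with a Tbx4 summit at 201 to 250 bp, 55 within 500 bp and 73, or 11.0% (8.84 to 13.6%), within 1000 bp. Just outside the limit were sites between Prkg2 and Rasgef1b (201 bp, score 42.2), between Barx1 and Phf2 (206 bp, 3.83) and between Hs3st3a1 and Elac2 (208 bp, 9.91). Just inside it, and therefore counted as shared, were sites between Api5 and Lrrc4c (199 bp, 2.2), between Tmem26 and Rhobtb1 (198 bp, 15.53) and between Veph1 and Shox2 (198 bp, 13.04). The Tbx4 list holds 4780 sites while its peak numbers run to 45103, so Tbx4 peaks beyond the list were not used here. The Hoxc10 numbers run to 4026 for 1614 sites. Of the Hoxc10-only sites inside genes, 8.33% of 432 had a Tbx4 summit within 1000 bp (6.08 to 11.3%).

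The deposited files hold no sequence, but 16 of the sites fell inside the promoter window of a gene in a RefSeq table (build GRCm38.p6, from 250 bases before to 50 after the gene's start). These are the sites whose DNA can be shown. Some genes have no window there, so sites such as that 74 bp from Itch (37.86) are not among them. Of the promoters with a site, 7 are printed. They are the 4 with the highest scores, that of Hoxd3 as the only Hox gene among them, and those of Trappc13 and Rhob, which hold motifs described next. Each line gives the 250 bases before the start of the gene, 5′ to 3′ on its own strand, and the capitals mark the Hoxc10 summit with 10 bases to each side.
Slc7a1, chr5:148399905-148400154, minus strand: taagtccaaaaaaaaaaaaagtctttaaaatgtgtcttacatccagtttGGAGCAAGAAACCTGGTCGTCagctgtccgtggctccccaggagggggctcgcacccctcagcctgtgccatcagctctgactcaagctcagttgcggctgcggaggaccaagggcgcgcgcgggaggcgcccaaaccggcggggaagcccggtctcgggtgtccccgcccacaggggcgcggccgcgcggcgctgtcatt
Ss18l2, chr9:121710139-121710388, plus strand: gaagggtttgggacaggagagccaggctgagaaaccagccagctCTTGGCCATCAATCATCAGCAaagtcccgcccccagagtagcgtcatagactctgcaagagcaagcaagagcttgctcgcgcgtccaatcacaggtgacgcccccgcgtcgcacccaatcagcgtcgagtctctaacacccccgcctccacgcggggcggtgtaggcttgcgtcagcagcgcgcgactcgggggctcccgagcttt
Cachd1, chr4:100776429-100776678, plus strand: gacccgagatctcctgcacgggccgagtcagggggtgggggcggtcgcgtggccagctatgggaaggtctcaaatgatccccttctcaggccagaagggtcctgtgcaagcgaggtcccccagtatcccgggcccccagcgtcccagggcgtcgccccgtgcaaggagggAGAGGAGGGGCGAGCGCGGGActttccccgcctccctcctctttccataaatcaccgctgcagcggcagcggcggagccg
Exoc1, chr5:76529057-76529306, plus strand: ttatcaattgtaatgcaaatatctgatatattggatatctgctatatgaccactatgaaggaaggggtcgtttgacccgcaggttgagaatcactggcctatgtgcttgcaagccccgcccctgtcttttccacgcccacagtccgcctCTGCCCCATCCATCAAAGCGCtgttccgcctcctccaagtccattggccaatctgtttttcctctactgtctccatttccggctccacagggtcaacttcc
Trappc13, chr13:104178467-104178716, minus strand: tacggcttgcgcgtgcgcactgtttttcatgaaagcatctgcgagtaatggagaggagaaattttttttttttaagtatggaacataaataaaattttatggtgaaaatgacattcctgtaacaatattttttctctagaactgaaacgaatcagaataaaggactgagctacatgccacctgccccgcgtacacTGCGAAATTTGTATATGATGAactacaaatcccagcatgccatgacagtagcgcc
Rhob, chr12:8500010-8500259, minus strand: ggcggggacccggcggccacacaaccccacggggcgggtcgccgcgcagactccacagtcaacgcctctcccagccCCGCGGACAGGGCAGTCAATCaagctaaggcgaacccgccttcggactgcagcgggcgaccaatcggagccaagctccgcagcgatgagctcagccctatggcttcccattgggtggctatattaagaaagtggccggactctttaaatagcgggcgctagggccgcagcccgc
Hoxd3, chr2:74711743-74711992, plus strand: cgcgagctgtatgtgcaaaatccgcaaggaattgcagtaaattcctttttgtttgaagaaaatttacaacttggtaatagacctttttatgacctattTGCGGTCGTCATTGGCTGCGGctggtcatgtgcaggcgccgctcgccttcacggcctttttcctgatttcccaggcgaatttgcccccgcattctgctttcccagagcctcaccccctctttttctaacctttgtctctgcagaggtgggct

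Slc7a1 encodes a transporter of cationic amino acids, and its summit 191 bases before the start scored 48.91. The summit of Ss18l2 lay 196 bases before the start and scored 43.3. Cachd1 scored 21.79 at 70 bases before the start, and Exoc1, a subunit of the exocyst that tethers secretory vesicles, scored 19.94 at 91 bases. Trappc13, a subunit of a vesicle tethering complex, scored 16.39 at 45 bases, and 328 bp from Trim23 on the other side. The window of Shld3 holds the same summit. Rhob, a small GTPase, scored 15.53 at 164 bases. Hoxd3, an anterior Hox gene, scored 3.83 at 142 bases. These promoters thus span low and high scores. The 17 promoters with such a summit, in the 250 bases before the start, were searched on both strands for 6 motifs. The letters TTTATGG, of the kind bound by posterior Hox proteins, occurred in 6 of the 17 promoters (35.3%), against 797 of all 32851 windows of the same length (2.43%). In Cachd1 the match lay 37 bases 3′ of the summit, and in Trappc13 it lay 107 bases 5′ of it, a match that the overlapping window of Shld3 holds too. The other 3 were in Eci1, AU020206 and Gm51876, at 61 bases 5′ and at 16 and 82 bases 3′ of the summit. The related letters TTTATTG and TTTACGA, and the T-box letters AGGTGTG, were in 0 of the 17, against 4.20%, 0.478% and 5.10% of all windows. The homeodomain letters TAATTA were in 1 (Tm9sf4), against 4.84%. The letters TGATTGA, of the kind bound by Pbx proteins and searched after the sequences were seen, were in Ss18l2 and Rhob, at 1 and 8 bases from the summit, against 2.34% of all windows. With 17 promoters these matches are a description, and most of the 664 sites have no sequence here.

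The sites lay at all distances from genes, and 45.0% were over 100 kb from the nearest protein-coding gene end. The distance classes used here differ in width, and the bases between genes in each class were not counted. No preference for a distance is therefore read from the shares. The median distance to the nearer end of a protein-coding gene was 79081 bp (quartiles 20343 and 220774 bp). Only 35 sites, 5.27% (3.81 to 7.24%), lay within 1 kb of a gene end, 74 at 1 to 10 kb, 153 at 10 to 50 kb and 103 at 50 to 100 kb. The largest class held 246 sites at 100 to 500 kb, 37.0%, and 53 sites, 7.98%, were over 500 kb away. The share over 100 kb was thus 299 of 664 (interval 41.3 to 48.8%). Intergenic Hoxc10 sites that had a Tbx4 summit were more often that far, 51.6% of 322 (46.1 to 57.0%), and intergenic Tbx4-only sites less often, 36.5% of 2231 (34.6 to 38.6%). Within 1 kb of a gene end the shares were 5.27% for Hoxc10-only sites, 0.932% (0.317 to 2.70%) for Hoxc10 sites with Tbx4 and 10.9% (9.71 to 12.3%) for Tbx4-only sites. When non-coding genes also counted as genes, 9.87% of the remaining 537 sites were over 100 kb from a gene end.

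**Figure D1:**
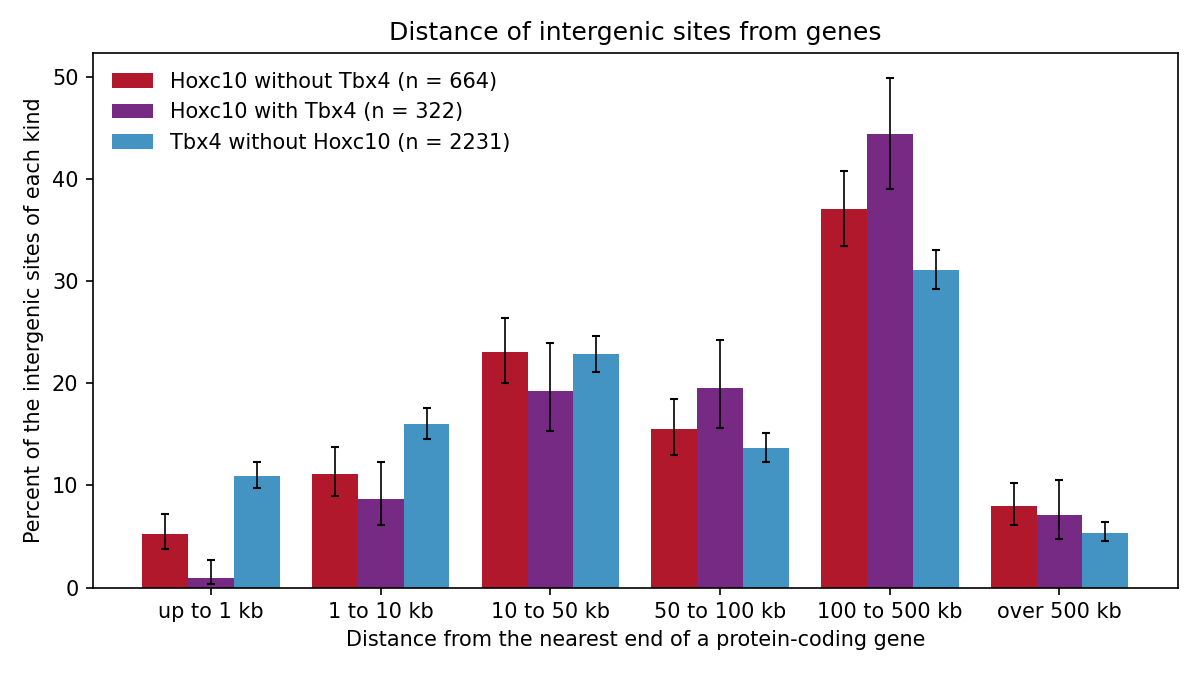
Percent of intergenic sites (y axis) in 6 classes of distance from the nearest end of a protein-coding gene (x axis), for Hoxc10 sites without Tbx4, Hoxc10 sites with Tbx4 and Tbx4 sites without Hoxc10; error bars are 95% Wilson intervals of counting error. For all 3 kinds the tallest bar is at 100 to 500 kb, at 37.0%, 44.4% and 31.2%. The classes differ in width.

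The few sites close to genes sat mainly at their starts and had the highest median score. The score, given by MACS2 as a −log10 value, is larger for peaks that stand farther above the background of their library. For 24 of the 35 sites within 1 kb the strand of the nearer gene was known, and 20 of these, 83.3% (64.1 to 93.3%), lay on the side of the gene's start. Beyond 1 kb the nearer end was a start for 46.6% of 479 sites. The site nearest to a gene was 34 bp from Men1, which encodes the tumour suppressor menin (score 7.02). It was followed by sites at Trappc13 (45 bp, 16.39), Lrrcc1 (47 bp, 6.34), Sumf1, an activator of sulfatases (68 bp, 13.04), and Cachd1 (70 bp, 21.79). On the other side of this limit, and not counted here, were Hoxc10-only sites 16 bp inside Arid3a (3.83), 51 bp inside 4930524J08Rik (14.63) and 57 bp inside Msh5 (31.58). The median score was 13.04 within 1 kb, 8.43 at 1 to 10 kb and at 10 to 50 kb, 6.34 at 50 to 100 kb, 7.02 at 100 to 500 kb and 5.69 over 500 kb. The 95% interval of the median was 7.02 to 19.94 in the nearest class and 4.43 to 7.02 in the farthest, so the intervals met at 7.02.

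**Figure D2:**
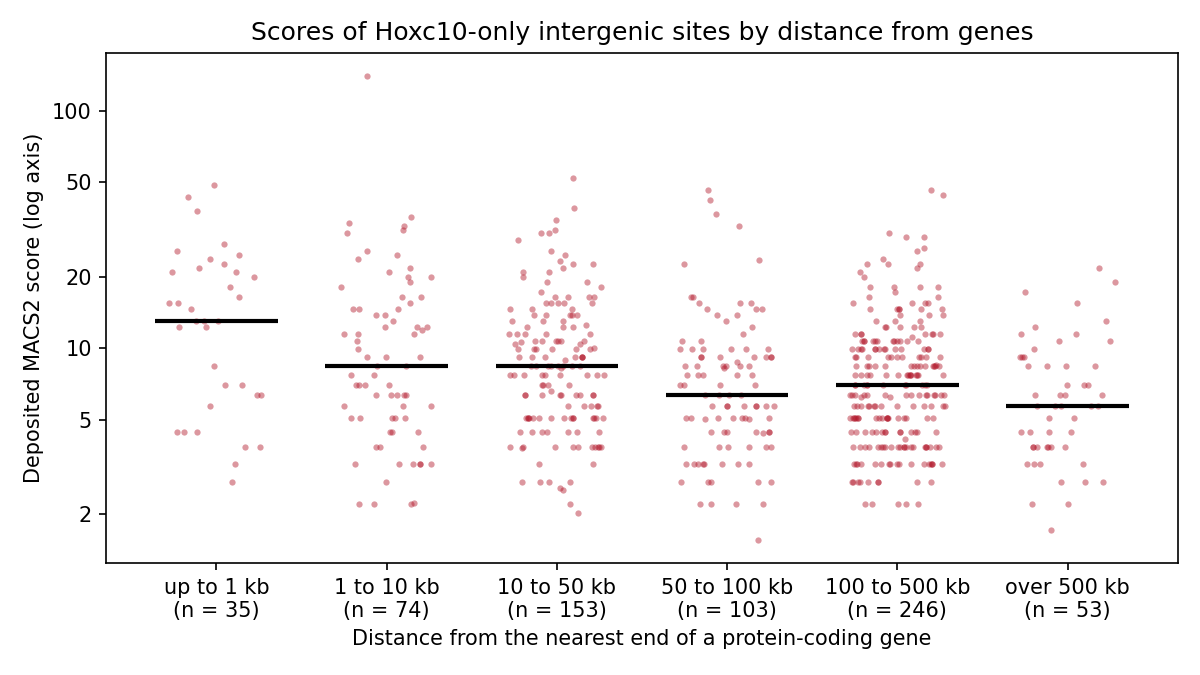
Deposited MACS2 score (y axis, log) of each of the 664 Hoxc10-only intergenic sites by distance from the nearest end of a protein-coding gene (x axis); each point is a site and each black line the class median. The medians are 13.04 within 1 kb and 5.69 over 500 kb, and the classes overlap over most of their range.

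Over all 664 sites the score had a median of 7.72 (quartiles 4.43 and 11.45), from 1.55 to 140.3, and took only 80 distinct values, so many sites are tied. The median of intergenic Hoxc10 sites with Tbx4 was 9.16 (8.43 to 9.91) and that of Hoxc10-only sites inside genes 7.02 (7.02 to 8.43). At the top of the Hoxc10 list these sites made up a smaller part, with 1 of the 10 highest, 12 of the 50 highest (24.0%) and 30 of the 100 highest, against 41.1% of the whole list.

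The highest site scored 140.3, the third of the whole list, at position 107545969 of chromosome 3. It lay 27951 bp from Slc6a17, a transporter of neutral amino acids, and 7729 bp from Ubl4b. The next, at 52.35, lay 91970 bp from Zfp503, a zinc finger corepressor of the same family as Zfp703, and 35063 bp from A430057M04Rik. A site between Akr1d1, an enzyme of bile acid and steroid metabolism, and Trim24, a transcriptional cofactor, scored 46.64 and had a Tbx4 summit 687 bp away. A site of the same score between Snx10 and Skap2 stood 248543 bp from the nearest Tbx4 summit. One in the desert before Pcdh18, a protocadherin, scored 44.41 at 240747 bp from that gene. The sites named above at Slc7a1, Ss18l2 and Prkg2 also belong to the 15 highest. Lower in the same group were sites between Lhfp and Nhlrc3 (38.93), 74 bp from the ubiquitin ligase gene Itch (37.86), between Kif26a and A530016L24Rik (36.79) and between Copz1 and Gpr84 (35.74). The last 3 of the 15 highest lay between Pax8 and Cacna1b (34.69), 8848 bp from the Wnt receptor gene Fzd2 (33.64) and 3256 bp from Ramp3 (32.61). Their distances to Tbx4 summits ranged from 201 bp at Prkg2 and Rasgef1b to 791533 bp at Ramp3. High scores thus occurred both close to Tbx4 sites and far from them. Sites with a Tbx4 summit within 1000 bp had a median score of 7.02 and the others 7.72.

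Gene deserts, taken as gaps of at least 500 kb between protein-coding genes, held 307 of the sites, 46.2% (42.5 to 50.04%). Such gaps make up 49.4% of all bases between protein-coding genes, and the density was 0.375 sites per Mb in deserts, against 0.423 per Mb in other gaps. Gaps of 1 Mb or more held 22.6% of the sites and 32.0% of the bases, while gaps under 10 kb held 2.26% of the sites and 1.65% of the bases. These values include chromosomes X and Y, with 2 and 6 sites in 125 and 88.4 Mb between genes. No density without them is given. The desert share was 55.0% (49.5 to 60.3%) for intergenic Hoxc10 sites with Tbx4 and 39.0% (36.9 to 41.0%) for intergenic Tbx4-only sites. Within deserts, 50.8% of the sites were in the central 50% of the gap. When every gene of the table bounded the gaps, non-coding ones included, 5.21% of the remaining sites were in deserts.

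The 664 sites lay in 494 of 19697 gaps, and 387 gaps held a single site. The desert-sized space between Thap1 and Zfp703 held the most, 9 sites in 813 kb. Veph1 to Shox2 held 6 in 675 kb. There were 5 each between Usp25 and Cxadr, Zfp608 and Gramd3, Gm40892 and Flrt2, and Cdh8 and Cdh11. Gaps with 4 sites were Pop4 to Gm6818, Eya4 to Rps12, Psmd7 to Zfhx3, Plk2 to Actbl2, Mki67 to Mgmt and Arrdc4 to Nr2f2. These 12 gaps together held 59 sites. The longest gaps held few, with 1 site between Pcdh20 and Pcdh9 (4542 kb), Olfm4 and Pcdh17 (4420 kb), Tenm3 and Aga (3989 kb) and Pcdh7 and G6pd2 (3676 kb), and 2 between Zeb2 and Acvr2a (3697 kb). The site farthest from any gene end stood 1604919 bp from Efnb2, an ephrin ligand, with a score of 3.83. It was followed by sites 1492355 bp from Pcdh9 (8.43) and 1313737 bp from Cdh8 (6.34), and by a second site before Efnb2 at 1294028 bp (19.04).

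**Figure D3:**
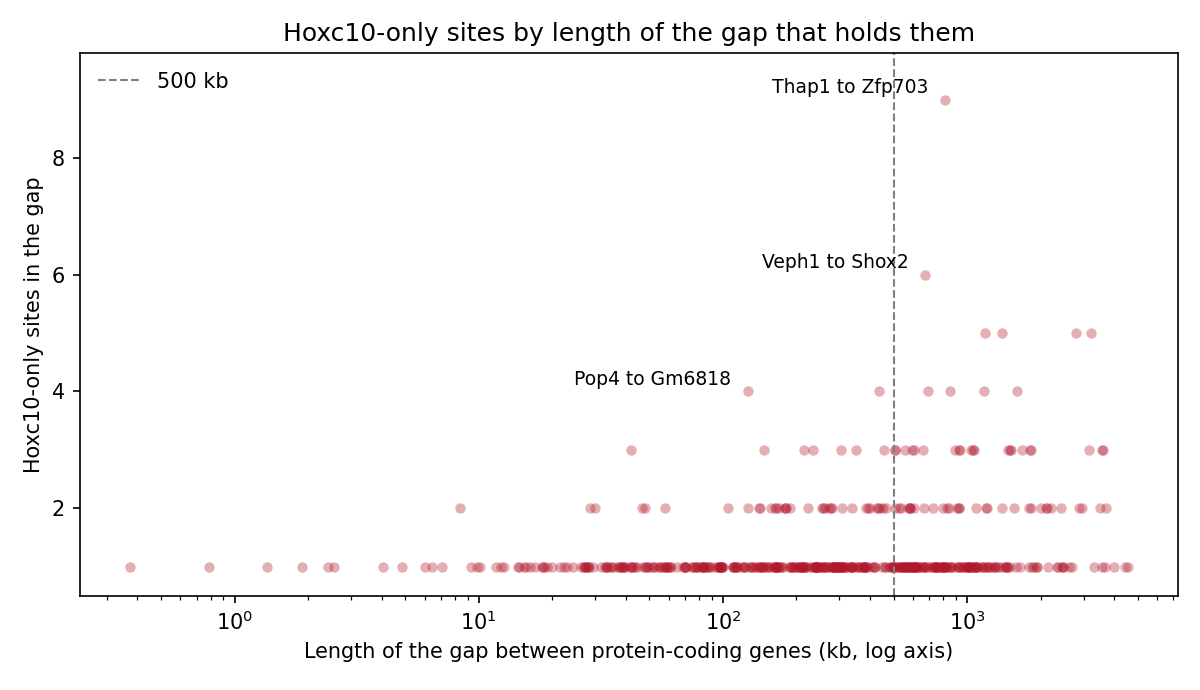
Number of Hoxc10-only sites (y axis) against the length of the gap between protein-coding genes that holds them (x axis, kb, log), 1 point for each gap with at least 1 site and a gene on both sides; the dashed line marks 500 kb. Thap1 to Zfp703 holds 9 sites and Veph1 to Shox2 holds 6, while Pop4 to Gm6818 holds 4 in 127 kb.

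Hoxc10-only sites often shared a gap with other sites. A shared Hoxc10 site was in the same gap for 195 of the 664 and a Tbx4-only site for 392, while 243 sites were in gaps with no other kind of intergenic site of either list. Of the gaps with 4 or more, Plk2 to Actbl2 and Pop4 to Gm6818 each had 4 Hoxc10-only sites and none of the other kinds. Those between Plk2 and Actbl2 scored 9.91, 18.07, 4.43 and 7.72. Cdh8 to Cdh11, between 2 cadherin genes, had 5 with scores of 6.34, 1.71, 17.26, 6.34 and 6.34, beside 1 Tbx4-only site. In contrast, Mki67 to Mgmt had 4 beside 7 shared Hoxc10 and 13 Tbx4-only sites, and Zfp608 to Gramd3 had 5 beside 6 and 11.

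The sites rarely formed clusters of their own, and the same held for intergenic Hoxc10 sites with Tbx4 and Hoxc10-only sites inside genes. A cluster was taken as 3 or more sites with at most 50 kb between neighbours, and 19 sites, 2.86% (1.84 to 4.43%), stood in 6 clusters. Neighbouring sites on a chromosome were a median of 1.89 Mb apart (quartiles 318 kb and 5.04 Mb). Counting Hoxc10 sites of every kind, 25.5% had another within 50 kb, against 29.2% of intergenic sites with Tbx4 and 22.5% of Hoxc10-only sites inside genes. With 20 kb as the distance 1.81% were in clusters, and with 100 kb 6.63%. At 50 kb, clusters of their own kind held 2.80% of intergenic Hoxc10 sites with Tbx4 (1.48 to 5.23%). For Hoxc10-only sites inside genes the share was 4.63% (3.02 to 7.04%). Chains of 3 or more Hoxc10 sites of any kind held 8.89% of Hoxc10-only intergenic sites. They held 9.94% of intergenic Hoxc10 sites with Tbx4 and 9.03% of Hoxc10-only sites inside genes.

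Of the 6 clusters, 3 bordered Zfp703, a zinc finger corepressor gene expressed in many developing tissues. The largest had 4 sites over 101 kb, with scores of 6.34, 25.59, 13.86 and 11.14, between 229810 and 128755 bp before Zfp703, and 3 shared sites lay among them. Another had scores of 6.23, 12.24 and 19.94 over 33.9 kb, with 2 shared sites among them. The third was beyond Zfp703, towards Erlin2, with scores of 20.86, 22.72 and 13.04 and the nearest Tbx4 summits 3294, 946 and 228 bp away. All 9 sites between Thap1 and Zfp703 scored from 5.69 to 25.59. Among them, those scoring 5.69, 6.23, 12.24 and 6.34 had a Tbx4 summit 309, 895, 288 and 499 bp away. For the others the nearest Tbx4 summit was 2848 bp away or farther. The 9 shared Hoxc10 sites of the same gap ran from 5.05 to 85.52, and the 3 highest of all were shared sites.

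**Figure D4:**
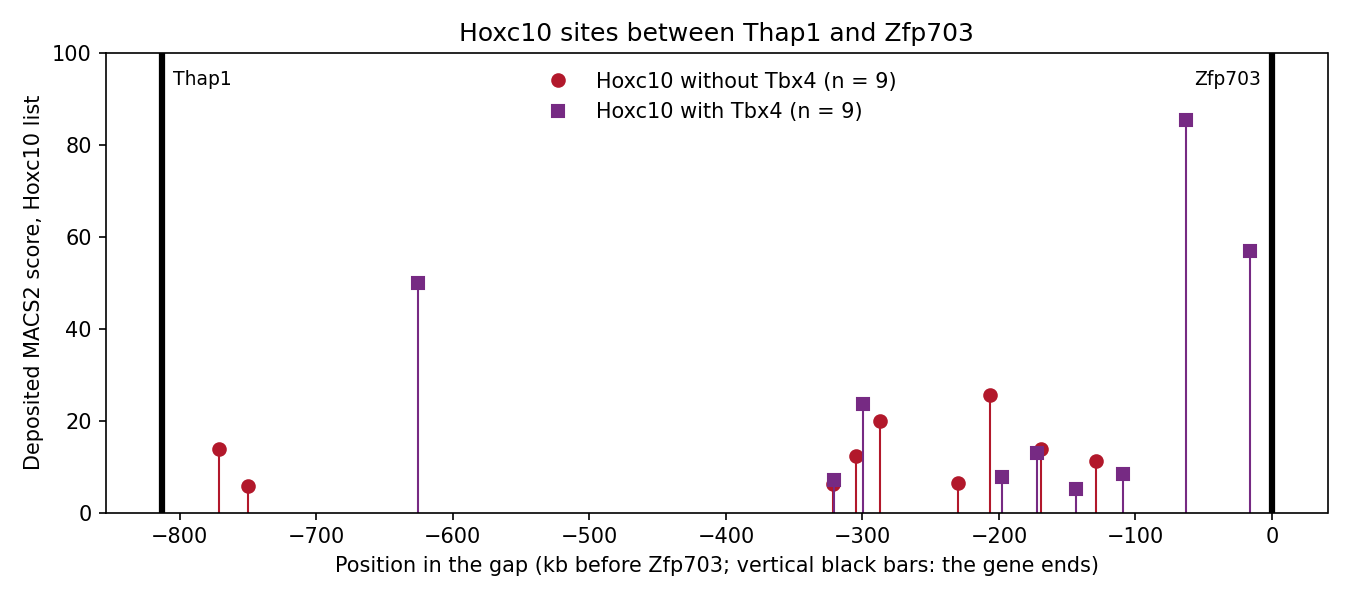
Hoxc10 score (y axis) of each Hoxc10 site between Thap1 and Zfp703 by its distance before Zfp703 (x axis, kb), for sites without Tbx4 and with Tbx4; vertical black bars are the gene ends. The 9 sites without Tbx4 stay at or below 25.59, while 3 sites with Tbx4 reach 50.05, 57.02 and 85.52. Sites without Tbx4 have no Tbx4 summit within 200 bp, but some have one within 1000 bp. The 8 Tbx4-only sites of the gap are not drawn.

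The cluster at Gas1, a Hedgehog co-receptor, had 3 sites at 49178, 40312 and 27069 bp from that gene, with scores of 19.94, 9.91 and 7.02, and the nearest Tbx4 summit 30226 bp away or farther. The remaining clusters were both on chromosome 7 and very tight. Between Pop4 and Gm6818, 3 sites lay within 2.26 kb, with scores of 6.57, 2.51 and 8.43, and between Gm4454 and Gm21115, 3 lay within 2.72 kb, with 6.34, 5.69 and 3.83. All 6 scored at most 8.43, against a list median of 7.72. The same stretch of chromosome 7 held single sites between Gm6818 and Gm6605 (5.05), Gm5591 and Gm4454 (6.34) and Gm21129 and Gm21136 (4.43). A further site between Pop4 and Gm6818 scored 10.02. None of these gaps held a shared Hoxc10 or a Tbx4-only site. Without a linking rule, 6 pairs of sites stood within 1000 bp of each other, 2 of them in the chromosome 7 clusters. The others were between Slc38a6 and Tmem30b (549 bp), Gsc and Dicer1 (995 bp), Itga1 and Isl1 (650 bp) and Adgra3 and Ppargc1a (532 bp).

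The flanking genes, the nearest protein-coding gene on each side of a site's gap, numbered 935, or 4.27% of 21887 protein-coding genes, and 87 genes (0.397%) flanked at least 3. A gene with long gaps around it had more room for a site. Of genes with under 100 kb of flanking gap 0.948% flanked a site, and the share was 8.13% at 100 to 500 kb, 24.6% at 500 kb to 1 Mb and 33.6% over 1 Mb. Each list below is given with its median flanking space, which was 37.6 kb over all genes. The part of gap length in the list counts was not tested. The lists were chosen with earlier results of these data known, so their shares are a description and not independent evidence.

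Limb outgrowth and patterning genes flanked a site in 20 of 52 cases (38.5%, median space 187 kb). Zfp703 had 12 sites and Zfp503 had 4, of which 2 (24.63 and 23.67) lay 1819 and 4952 bp from Zfp503, inside the long non-coding RNA (lncRNA) gene A330001L22Rik. Twist1, a bHLH factor of limb mesenchyme, had 2 sites at 14532 and 8220 bp (9.91 and 13.86). Hand2, a bHLH activator of Shh expression, had 2 at 209316 and 128169 bp (4.43 and 10.67), and Tbx3 2 at 695159 and 532535 bp (10.67 and 3.26). Genes of hindlimb and forelimb identity flanked a site in 4 of 15 cases (26.7%, 26.0 kb). Tbx4 had sites at 45924 and 100821 bp on its Brip1 side, with scores of 9.16 and 25.59, the second 408 bp from a Tbx4 summit and inside the lncRNA gene Gm20759. Isl1, a LIM-homeodomain factor required for hindlimb outgrowth, had 3 low-scoring sites (5.05, 5.05 and 2.2), all nearer to its neighbours. The sites of 5.05 lay 1087358 and 1086708 bp from Isl1 and 108948 and 109598 bp from Itga1. The site of 2.2 lay 483000 bp from Isl1 and 58154 bp from Parp8. Nrip1 had 1 (8.43), and Pitx1, a homeodomain factor of hindlimb identity, 1 at 126379 bp (5.69).

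Hox cofactors and homeodomain partners flanked a site in 11 of 24 cases (45.8%, 614 kb). Shox2, a homeodomain factor of the proximal limb elements, had 6 sites, from 31874 to 596465 bp away, with scores of 14.69, 5.69, 3.26, 10.67, 5.05 and 2.72 from the far to the near end. Zfhx3 had 4, the highest (30.56) at 670479 bp and 20350 bp from its other flank Psmd7. The Iroquois homeodomain genes Irx5 and Irx3 had 2 each (highest 19.04 and 15.53), and a site of 3.26 between them counts for both. The 19.04 site was 307587 bp from Irx5, in a gap of 313 kb that ends at Irx6. Hox cluster genes flanked a site in 9 of 41 cases (22.0%), with a median space of only 8.35 kb. Among their sites, one of 20.86 lay between Hoxa3 and Hoxa7 inside the lncRNA gene Hoxaas3. Further sites were between Hoxb1 and Skap1 (11.45), Hoxd8 and Hoxd3 (3.83) and Hoxb13 and Hoxb9 (2.2). T-box genes flanked a site in 5 of 17 cases (29.4%, 216 kb), with 2 sites each at Tbx4, Tbx3 and Tbx18 (highest 18.15), and 1 each at T (14.69) and Tbx15 (6.34).

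Guidance and adhesion genes flanked a site in 24 of 35 cases (68.6%), and they had the widest median space of the lists, 938 kb. Efna5, an ephrin ligand, had 4 sites, the highest (13.04) 1470 bp from it and the others on the far side at up to 2809937 bp. Cdh8 had the 5 between it and Cdh11 (highest 17.26). Cdh6 and the ephrin receptor gene Epha4 had 3 each (highest 9.16 at both), and Pcdh10 had 2 (highest 32.61). The 9.16 site of Cdh6 was 3465571 bp from it and 86572 bp from its other flank Cdh9, and the 32.61 site of Pcdh10 was 3520734 bp from it and 54357 bp from D3Ertd751e. Muscle, tendon and connective tissue genes flanked a site in 15 of 40 cases (37.5%, 333 kb). Tgfb2, a growth factor, had 3 with 29.55, 15.53 and 2.72. They were 355375 to 452951 bp from it and 52526 to 150102 bp from its other flank Lyplal1. Osr1, a factor of limb connective tissue, had 3, of which 2 (8.43 and 18.15) were 236428 and 235309 bp away. Cdh11 had the 5 it shares with Cdh8, Cdh2 had 5 of its own (highest 8.43), and Fn1 2 (6.34). Cartilage and joint genes flanked a site in 12 of 38 cases (31.6%, 217 kb). Sox9, the factor that commits cells to cartilage, had 3 with scores of 5.05, 5.05 and 5.69 at 953593, 644454 and 218901 bp. Foxp1 and Trps1 had 3 each (both highest 9.91), and Dkk2 and Sox4 2 each (5.69 and 4.43). The 9.91 site of Foxp1 was 97049 bp from it and 2084 bp from its other flank Eif4e3. The 9.91 site of Trps1 was 830842 bp from it and 65090 bp from its other flank Eif3h. Signalling feedback genes flanked a site in 8 of 34 cases (23.5%, 293 kb), among them Gas1 with the 3 above, the Notch target Hes1 with 2 (13.04 at 541 bp, 10.39 at 176434 bp), Id2 with 2 (10.67), Lef1 (12.24) and Fzd8 (11.45).

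Counts on the lists of other cell types were near the 4.27% of all genes, which amounts to less than 1 gene in a list of 17, so nothing is read from them. There were 0 of 17 ectoderm genes, 0 of 17 neural and Schwann cell genes, 0 of 14 liver genes and 0 of 24 housekeeping genes, with median spaces of 109, 67.8, 51.6 and 15.9 kb. The housekeeping list was a control. Endothelial genes had 1 of 17 (5.88%), Erg (9.91 at 46357 bp), which the cartilage list also holds, and blood genes 1 of 16 (6.25%), Ptprc (3.83 at 590094 bp).

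**Figure D5:**
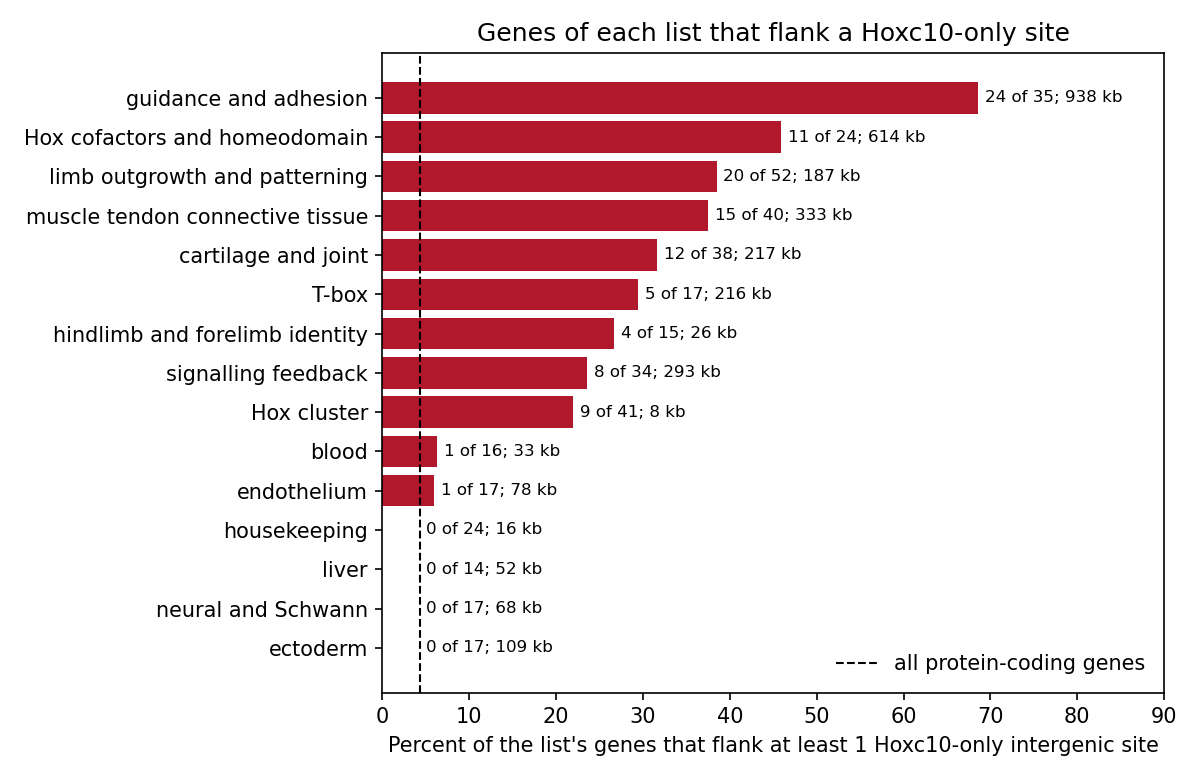
Percent of the genes of each list (x axis) that flank at least 1 Hoxc10-only intergenic site, for 15 lists (y axis); bar labels give the genes and the median length of the gaps beside them, and the dashed line is the 4.27% of all protein-coding genes. Guidance and adhesion genes reach 68.6% with a median space of 938 kb, and Hox cluster genes 22.0% with 8.35 kb. The lists were chosen with earlier results of these data known.

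Outside protein-coding genes did not mean outside all annotated genes. Of the 664 sites 127, or 19.1% (16.3 to 22.3%), lay inside a non-coding gene, and 120 of them, 18.1%, inside an lncRNA gene. The lncRNA share was 20.5% for intergenic Hoxc10 sites with Tbx4 and 19.5% for intergenic Tbx4-only sites. The median score was 7.72 both inside lncRNA genes and outside all non-coding genes. Hosts of high sites, picked after their values were seen, were Gm38811 (46.64), Gm36408 (29.55), Gm33574 beside Ror2 (25.59) and Gm46288 beside Bhlha9, a bHLH gene of the limb (24.63).

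By chromosome, 656 of the sites were on chromosomes 1 to 19, at 0.274 (chromosome 9) to 0.642 (chromosome 8) sites per Mb between genes. Chromosome X held 2 sites and chromosome Y 6, or 0.016 and 0.0679 per Mb, and none of these 8 scored above 6.34. The whole Hoxc10 list was sparse there too, with 3 sites on X and 7 on Y.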

How the data were processed

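Per the submitters' processing notes, reads were handled with Bowtie2 2.2.6, MACS2 2.1.1.20160309 and HOMER on mm10. The authors deposited 1 list of 1 bp summits per factor, with a MACS2 score on the −log10 scale of a p-value or q-value; which of the 2, the control library and how the listed sites were selected are not stated. Depth is unknown. Positions were made 1-based. The deposited summits were placed against 21887 protein-coding genes of RefSeq GRCm38.p6, the build mm10, merged into gene bodies and gaps. Strand and promoter sequence came from RefSeq promoter windows, so the side of a gene was known for 503 sites. Scores were compared within the Hoxc10 list only. Intervals are 95% Wilson intervals, or binomial intervals of a median, and cover counting error only; sites close together are not independent. No test between samples was possible with 1 list each, and none over sites was made. Named genes flank the 15 highest sites, the clusters, the 10 gaps with most sites (12 with ties), the 5 longest gaps and the sites at the limits, or are up to 5 genes per list with most sites; genes of promoters, close pairs, lncRNA hosts, remaining Hox sites and the sites farthest from genes were chosen after their values were seen. All 388 genes of 15 lists were matched; some genes the rule names are not reported here. The members and lists were chosen with earlier results of these data known. The calls of site kind, gene deserts and clusters were tested on simulated data, and the other steps were not. Python 3.11.15, pandas 2.3.3 and scipy 1.17.1 were used.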

Additional observations from a re-analysis of the deposited data

How the results depend on the processing

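Of 55 recomputed values 39 stayed within their interval, or within 1.5 times the count. Restricting the Hoxc10 list to its higher-scoring 50% left 336 sites with a median score of 11.45, of which 40.2% were over 100 kb from a gene end and 1.79% in clusters, and 530 flanking genes; fewer sites follow from the setting itself. With every gene of the table, 9.87% were over 100 kb from a gene end and 5.21% in deserts. Deserts of 250 kb held 63.0% and of 1 Mb 22.6%. Clusters linked at 20 kb held 1.81% and at 100 kb 6.63%. The share with a Tbx4 summit within 5 kb was 15.5%, and it follows the limit for sharing, at 25.6% with 100 bp, 7.88% with 500 bp and 5.08% with 1000 bp. With windows of 1 kb and 20 kb it was 11.0% and 26.5%. Leaving out genes with Gm or Rik names, and chromosomes X and Y (chosen after seeing the data), moved none of the 7 results beyond these bounds. No paired analysis was possible because each factor has 1 list. No replicate could be left out for the same reason. Read depth is unknown, so the lack of a Tbx4 summit in the list does not show that Tbx4 was absent from a site.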
